A study of Homo sapiens with 8 samples.

Results

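SFPQ silencing in SKOV3 cells was measured on 4 of the 8 arrays of the series. They were taken by their labels: 2 control arrays and 2 arrays of cells that carried an shRNA against SFPQ, 1 for sh-SFPQ#2 and 1 for sh-SFPQ#3. SKOV3 is an established epithelial ovarian cancer line, and the shRNAs were delivered in pLKO lentiviral vectors. Both controls are labelled as control shRNA, but the study's methods name parental cells beside sh-ctrl cells for each line, so whether control 1 and control 2 differ in transduction cannot be told apart here. No drug was named for these samples. Nothing says that the 2 arrays of a group came from separate cultures, so p-values measure only the spread between these arrays, and the silenced pair also carried different shRNAs. The other 4 arrays held MDAH cells, another ovarian cancer line, in the same 4-part layout of controls and both shRNAs.

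SFPQ is a nuclear RNA- and DNA-binding protein that works as a dimer with NONO, is a core component of paraspeckles, and acts in splicing, transcription and DNA repair. It is known to be needed for transcription through very long genes in neurons. Among the gene groups described here, interferon-stimulated genes are switched on by STAT and IRF factors and limit viral RNA, and the integrated stress response raises ATF4, which switches on amino acid synthesis and stress genes.

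The 8 arrays shared 1 slide and 1 scan time. Within the SKOV3 row of the slide the controls came before the silenced samples, so position and group cannot be told apart. On SKOV3 arrays 47.8% to 51.0% of probes passed the scanner's test of being well above background, and no spot was saturated. The keratins KRT7, KRT8, KRT18 and KRT19, ERBB2, EPCAM, MUC1 and VIM were well above background on the 4 SKOV3 arrays. ERBB2, which SKOV3 cells are known to carry in extra copies, had a log2 signal of 6.49 and 6.05 in the controls and 6.39 and 6.28 in silenced cells, relative to percentile 75 of its array, the scale used for every level below. The summed linear level of 4 macrophage markers was 1.65 and 2.74 in controls and 2.81 and 1.93 in silenced cells. CSF1R, PECAM1 and HBB were not well above background on any SKOV3 array. The sum for 7 fibroblast markers was 0.436 and 0.299 in controls and 0.772 and 0.930 in silenced cells, with COL1A1 and DCN well above background on the 4 SKOV3 arrays and COL3A1, LUM, PDGFRA and PDGFRB on none. The part of other cells in the results was not tested, and in bulk RNA fewer cells of a type and less RNA per cell cannot be told apart.

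SFPQ (NM_005066) itself was examined first. Control levels were 4.84 and 4.66 on the log2 scale, against 3.01 for sh-SFPQ#2 and 2.48 for sh-SFPQ#3. Both silenced arrays lay below both controls, and sh-SFPQ#3 was the lower. The change was -2.01 with a standard error of 0.23, and limma, fitted to all 4 groups of the series, gave an adjusted p of 0.0299. The adjusted p from limma was 0.157 on the 4 SKOV3 arrays alone, with the same change, and it was 0.118 without control 1, 0.0802 without control 2, 0.0677 without sh-SFPQ#3 and 0.107 without either MDAH control. In the list of 46 paraspeckle proteins and SFPQ partners, SFPQ was the only member that passed this test and the only one that differed by 2-fold.

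A pair of readings was used for the other genes. In the first, a gene was called where its adjusted p from limma was under 0.05, which held for 155 of 15552 genes (0.997%), 66 of them higher (0.424%) and 89 lower (0.572%) after silencing. In the second, the silenced arrays did not overlap with the controls and the means differed by at least 2-fold, which held for 1177 genes (7.57%), 560 of them higher (3.6%) and 617 lower (3.97%). The second reading is a count without a p-value. The first count depended on the spread borrowed from MDAH arrays: limma called 0 genes on the 4 SKOV3 arrays alone, with 2765 genes at an unadjusted p under 0.05, against 3034 in the fit to all groups. The median change over all genes was -0.04 on the log2 scale. Of the 155 called genes, 73 were well above background on the 4 SKOV3 arrays and 61 were below that mark on both arrays of 1 group, where the change is only a bound, given as at least N-fold. Of the others, 13 were below it in both groups and 8 were only partly measured. The silenced arrays did not move to the same extent. The sh-SFPQ#3 array lay further from the controls than the sh-SFPQ#2 array for 442 of the 560 higher and 541 of the 617 lower genes. Each shRNA had a single array, so shRNA and array cannot be told apart.

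**Figure D1:**
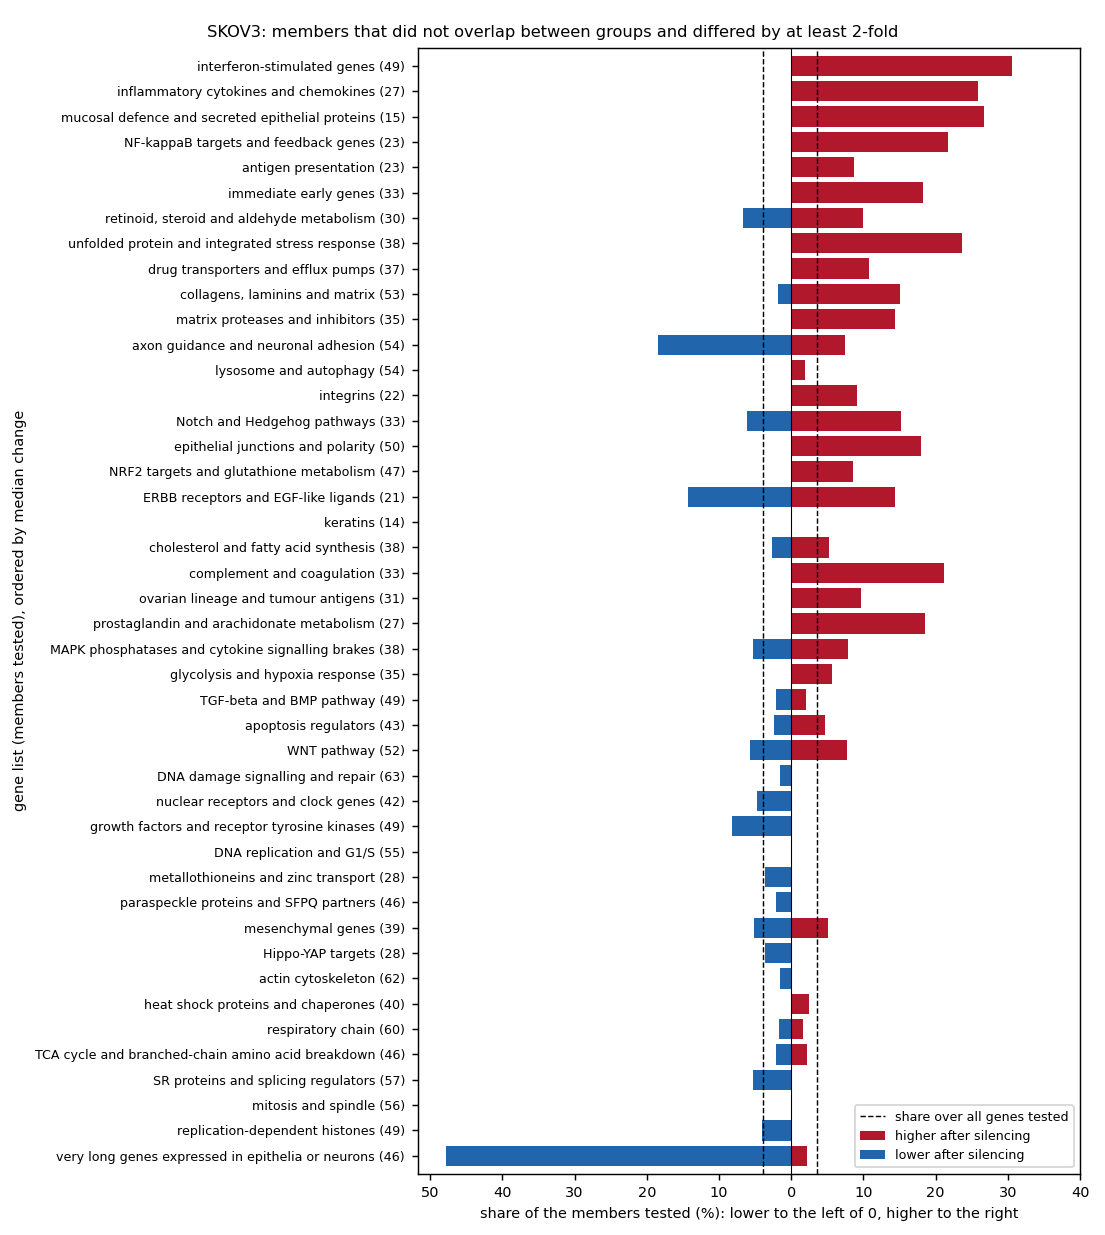
Share of the members of each of 44 gene lists, in percent of the members tested, that did not overlap between SKOV3 groups and differed by at least 2-fold, with lists in the order of their median change and the number of members tested in brackets. Red bars to the right are members that were higher after silencing, blue bars to the left members that were lower, and dashed lines mark the shares over all 15552 genes, 3.6% higher and 3.97% lower. Interferon-stimulated genes reached 30.6% higher and very long genes 47.8% lower.

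Interferon-stimulated genes were higher in silenced SKOV3 cells. Of 49 members tested, 3 rose and none fell by the adjusted p, and 15 (30.6%) were at least 2-fold higher without overlap, against 3.6% of all genes. Their median change was 0.77, against -0.04 over all genes, and 35 members lay above both controls on both silenced arrays, where 25.9% of all genes did so. Among the 42 members well above background on the 4 SKOV3 arrays, 10 were 2-fold higher, as were 322 of 13153 genes measured that way. In MDAH cells the median of the list was 0.30, against 0.10 over all genes.

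Promoters of 3 members that were 2-fold higher are shown because this family is known to be read through the interferon-stimulated response element. Its letters, GAAA, any 2 bases and GAAA again, were searched on both strands of the 300 bases around each start site, in RefSeq sequence of build GRCh38.p14. Matching by symbol found a promoter for 39 of the 49 members, and 23 of these (59%) held the letters, against 2.9% of the promoters of the genes tested and 3.65% of all 27305 promoters. The share was 58.3% among the members that were 2-fold higher and 59.3% among the others, so the letters did not separate them. The windows below lie before the start site, with the matching letters in capitals.
IFITM1, chr11:313975-314034, plus strand: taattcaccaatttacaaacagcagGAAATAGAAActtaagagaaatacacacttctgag
DDX60, chr4:168318771-168318830, minus strand: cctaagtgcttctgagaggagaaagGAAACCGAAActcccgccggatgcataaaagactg
IFIH1, chr2:162318685-162318744, minus strand: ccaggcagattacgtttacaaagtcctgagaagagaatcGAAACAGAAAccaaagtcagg

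IFITM1 (NM_003641), a membrane protein that hinders viral entry and whose promoter is the first of those windows, had levels of 0.87 and 0.22 in controls, 3.68 for sh-SFPQ#2 and 3.09 for sh-SFPQ#3. The silenced arrays stood well clear of both controls, and the gene rose by 2.84 (adjusted p = 0.0206 from limma). DDX60, a helicase of the antiviral RNA response, had levels of -0.48 and 0.02 in controls and 1.04 and 1.12 in silenced cells, and rose by 1.31 (adjusted p = 0.0440 from limma). MX2, a dynamin-like antiviral GTPase, was not well above background in the controls and was at least 2.51-fold higher after silencing (adjusted p = 0.0295 from limma).

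The other 12 members past 2-fold did not pass the adjusted test. RSAD2, which encodes the antiviral enzyme viperin, had -5.87 and -4.16 in controls and -1.08 and -2.33 in silenced cells, at least 4.86-fold higher (adjusted p = 0.0771 from limma). OAS1, a sensor that makes the second messenger for RNase L, had -5.15 and -2.55 in controls and -0.98 and -1.59 in silenced cells. MX1 had -1.15 and 0.36 in controls and 1.73 and 1.11 in silenced cells. In these genes control 2 lay above control 1 and sh-SFPQ#2 above sh-SFPQ#3. The same order ran through the list: 45 of 49 members were higher in control 2 than in control 1, with a median gap of 0.50, and 42 were lower with sh-SFPQ#3 than with sh-SFPQ#2. Set against control 2 alone, with control 1 left out, 10 members were 2-fold higher, and without control 2 there were 24.

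**Figure D2:**
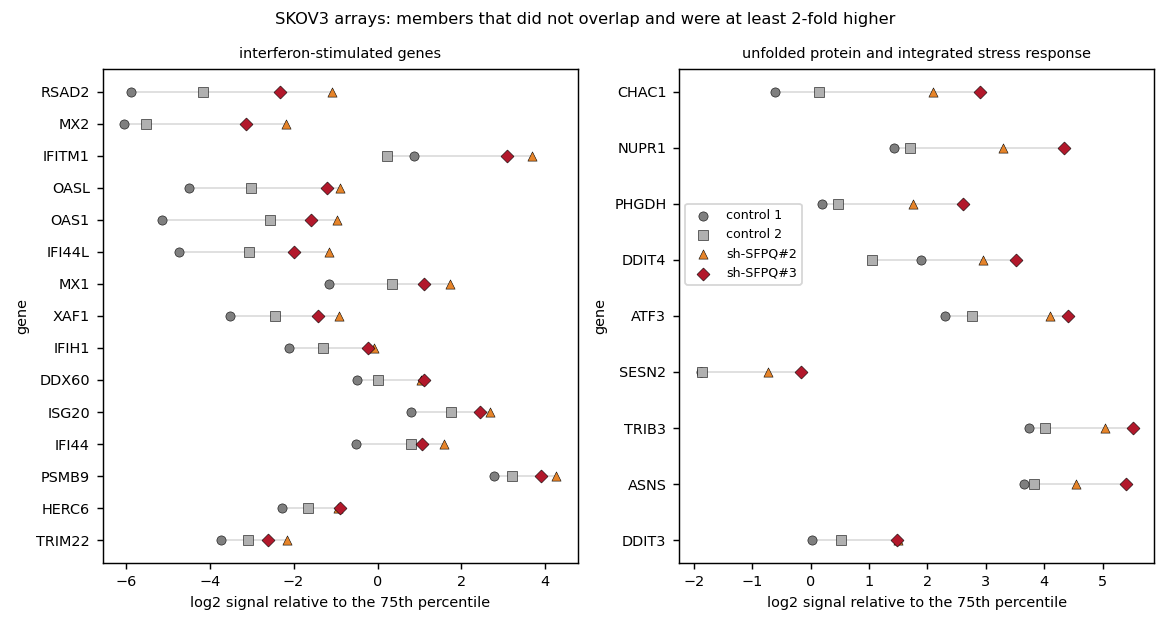
Levels on the log2 scale, set against percentile 75 of each array, for the 15 interferon-stimulated genes (left) and the 9 members of the unfolded protein and integrated stress response list (right) that did not overlap between SKOV3 groups and were at least 2-fold higher; each symbol is 1 array, with grey for the controls, orange for sh-SFPQ#2 and red for sh-SFPQ#3. On the left control 1 is below control 2 except for IFITM1, and on the right sh-SFPQ#3 is the highest array except for DDIT3.

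Cytokines and secreted defence proteins were the next group. Of 27 inflammatory cytokines and chemokines, 2 rose, 7 (25.9%) were 2-fold higher and none was 2-fold lower, with a median of 0.67. CCL20, a chemokine that draws lymphocytes and dendritic cells to epithelia, had levels of -2.50 and -1.03 in controls and 1.31 and 1.82 in silenced cells, a rise of 3.33 (adjusted p = 0.0380 from limma). TNF, the founding cytokine of its family, had -0.23 and 0.40 in controls and 2.01 and 1.99 in silenced cells, a rise of 1.92 (adjusted p = 0.0472 from limma). Both genes were clear of both controls. IL6 and IL1A, which encode inflammatory cytokines, were different in kind. IL6 had 1.71 and 4.02 in controls and 5.06 and 4.87 in silenced cells. IL1A had -0.38 and 2.52 in controls and 2.81 and 2.95 in silenced cells. Control 2 was close to the silenced arrays for IL1A, while IL6 was 0.94 higher than in control 2 alone, and limma gave adjusted p of 0.162 for IL6 and 0.284 for IL1A. Over the list, 22 members were higher in control 2 than in control 1. The count of members at least 2-fold higher was 4 without control 1 and 12 without control 2, and the list's median was 0.26 and 0.85.

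Among 23 NF-kappaB targets and feedback genes all lay above 0, with a median of 0.60, and 5 were 2-fold higher. Control 2 was above control 1 in 21 of them, with a median gap of 0.60, and 4 members were 2-fold higher without control 1 and 14 without control 2, with medians of 0.30 and 1.12. Among the 19 members well above background on the 4 SKOV3 arrays, 3 were 2-fold higher, as were 322 of 13153 genes measured that way. CFB, the complement protease of the alternative pathway, had levels of 0.77 and 0.29 in controls and 2.60 and 2.86 in silenced cells, and rose by 2.20 (adjusted p = 0.0434 from limma). LTB, a lymphotoxin, had -2.91 and -4.85 in controls and -0.87 and -1.46 in silenced cells, with an adjusted p of 0.0939 from limma. CFB was also the member of the complement and coagulation list that rose, and 7 of its 33 members (21.2%) were 2-fold higher, although the list's median was 0.10. Complement genes of this list had close controls: C3, the central component, had 2.67 and 2.75 in controls and 4.12 and 3.82 in silenced cells, and C1R and C1S, the proteases of the classical pathway, were 1.41 and 1.53 higher. The adjusted p from limma was 0.0719, 0.0755 and 0.233 for C3, C1R and C1S, above the threshold. In MDAH cells C3, C1R and C1S changed by -1.05, -0.36 and -1.29, and the difference between the lines did not pass for any of these genes (adjusted p = 0.0811 for C3, 0.179 for C1R and 0.257 for C1S from limma).

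DMBT1 (NM_007329), a secreted scavenger-receptor protein of mucosal surfaces, had the highest rise of the called genes well above background on the 4 arrays. Its levels were -2.96 and -1.39 in controls, 1.82 for sh-SFPQ#2 and 2.89 for sh-SFPQ#3, a rise of 4.53 (adjusted p = 0.0299 from limma). It was 1 of 15 mucosal defence genes, of which 4 (26.7%) were 2-fold higher, against 3.6% of all genes. After normexp, another correction for background signal, 2 were 2-fold higher, against 209 of all 15552 genes. The list's median was 0.60, and 0.68 without control 1. LCN2, an iron-trapping protein, had -1.10 and -1.01 in controls and 1.07 and 1.24 in silenced cells, with an adjusted p of 0.208 from limma. Its arrays in MDAH cells lay far apart, at -2.01 and -3.83 in controls and -2.96 and -5.24 in silenced cells. In antigen presentation, TAP1, which carries peptides into the endoplasmic reticulum for MHC class I, rose by 1.16 from levels of 3.83 and 4.13 to 5.10 and 5.17 (adjusted p = 0.0448 from limma), and the 23 members had a median of 0.56. HCP5, a transcript of the MHC region, rose by 1.80 (adjusted p = 0.0440 from limma).

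The stress response list held 38 members tested, of which 3 rose and none fell, and 9 (23.7%) were 2-fold higher. Its median of 0.35 differed little by control, from 0.33 to 0.55 over the 4 pairs of a silenced and a control array. In MDAH cells it was -0.03, against 0.10 over all genes. CHAC1, which degrades glutathione, had levels of -0.61 and 0.15 in controls, 2.09 for sh-SFPQ#2 and 2.89 for sh-SFPQ#3, and rose by 2.73 (adjusted p = 0.0448 from limma). NUPR1, a stress-induced chromatin protein, had 1.43 and 1.70 in controls and 3.29 and 4.34 in silenced cells, and rose by 2.25 (adjusted p = 0.0448 from limma). ATF3, a stress-induced transcription factor, had 2.31 and 2.76 in controls and 4.09 and 4.40 in silenced cells, and rose by 1.71 (adjusted p = 0.0299 from limma). The 6 others did not pass: PHGDH, of serine synthesis, DDIT4, TRIB3, SESN2, ASNS, of asparagine synthesis, and DDIT3, which encodes CHOP, were higher by 1.21 to 1.85 on the log2 scale. The count of members 2-fold higher was 8 or 9 when either control or sh-SFPQ#3 was left out, and 12 without sh-SFPQ#2.

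The letters TGATGNAA, the core of the site that ATF4 binds with its C/EBP partners, were searched in the same promoters. They stood in 3 of the 8 matched promoters of members 2-fold higher (37.5%), in 2 of 26 of the other members (7.69%) and in 1.74% of the promoters of the genes tested. These few promoters are a description, and the windows are shown because their genes were the 3 members 2-fold higher that held the letters.
CHAC1, chr15:40953235-40953294, plus strand: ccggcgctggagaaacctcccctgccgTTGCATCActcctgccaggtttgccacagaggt
ATF3, chr1:212565189-212565248, plus strand: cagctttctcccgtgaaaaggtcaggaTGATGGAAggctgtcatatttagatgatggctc
ASNS, chr7:97872444-97872503, minus strand: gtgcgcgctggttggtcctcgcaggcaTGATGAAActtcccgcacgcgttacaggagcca
The capitals mark the match to the letters, which in CHAC1 is on the opposite strand.

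SLC6A9, a glycine transporter, had levels of -2.39 and -2.59 in controls and -0.59 and -0.01 in silenced cells, a rise of 2.19 (adjusted p = 0.0299 from limma). CRYAB, a small heat shock protein, had -1.81 and -2.51 in controls and 0.31 and 1.68 in silenced cells, a rise of 3.15 (adjusted p = 0.0434 from limma). CRYAB stood alone among the chaperones: it was the only one of 40 members to pass or to be 2-fold higher, and 30 members lay below 0. GSTA4, a glutathione transferase, rose by 1.09 (adjusted p = 0.0299 from limma), and it was the member of the 47 NRF2 and glutathione genes that passed.

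Of 33 immediate early genes, 2 rose and 6 (18.2%) were 2-fold higher, with a median of 0.54. The median was 0.32 without control 1, and 9 members were 2-fold higher without control 2. Besides ATF3, NR4A3, an orphan nuclear receptor, had -2.37 and -1.95 in controls and -0.25 and -0.16 in silenced cells, a rise of 1.95 (adjusted p = 0.0448 from limma). DUSP1, a MAP kinase phosphatase, had 2.28 and 3.03 in controls and 4.22 and 4.55 in silenced cells, with an adjusted p of 0.0535 from limma. Apoptosis regulators did not move together: their median was 0.01 over 43 members. BIK and BMF, which encode BH3-only killers, were 1.19 and 1.81 higher and BCL2, a survival protein, was -1.04 (adjusted p = 0.135, 0.128 and 0.227 from limma). A second probe of BCL2 was -3.28.

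Epithelial genes moved in a part of their list. Of 50 junction and polarity genes 1 rose and 9 (18.0%) were 2-fold higher, with a median of 0.11. The count was 5 without control 2, 5 without sh-SFPQ#3 and 5 with normexp. Over all 15552 genes, normexp left 209 that were 2-fold higher. Among the 42 members well above background on the 4 SKOV3 arrays, 6 were 2-fold higher, as were 322 of 13153 genes measured that way. JUP, the plakoglobin of desmosomes and adherens junctions, had levels of 1.29 and 1.88 in controls and 3.20 and 3.33 in silenced cells, a rise of 1.68 (adjusted p = 0.0414 from limma). EHF, an epithelial ETS factor, had -1.91 and -0.42 in controls and 0.59 and 0.62 in silenced cells. SPINT1, an inhibitor of membrane proteases, was at least 3.04-fold higher, and CDH1, which encodes E-cadherin, at least 1.62-fold higher, since neither was well above background in the controls. For EHF, SPINT1 and CDH1 limma gave adjusted p of 0.120, 0.0650 and 0.273, above the threshold. None of 14 keratins of the list was 2-fold changed, while among 24 tested genes with a keratin symbol KRT85, a hair keratin named after its values were seen, was 1.51 higher (adjusted p = 0.381 from limma). TNS4, a focal adhesion protein, was not well above background in the controls and was at least 4.87-fold higher (adjusted p = 0.0448 from limma).

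Among 53 collagens, laminins and other matrix genes none passed, while 8 were 2-fold higher and 1 was 2-fold lower. The counts were 5 and 3 without control 2, 11 and 2 without control 1, 5 and 1 without sh-SFPQ#3, and 12 and 4 without sh-SFPQ#2. LAMA3, a chain of the epithelial laminin, had 3.60 and 4.95 in controls and 5.57 and 5.83 in silenced cells. COL16A1 had -2.52 and -1.16 in controls and -0.08 and 0.99 in silenced cells, but a second probe of COL16A1 was -0.38. Markers of fibroblasts, some of which, COL1A1 and COL3A1 among them, belong to both lists, were higher in sum as given above, and their part was not tested. COL8A1 had 0.95 and -0.15 in controls, -1.47 for sh-SFPQ#2 and -3.67 for sh-SFPQ#3, and was the member that was lower. ITGB7, an integrin beta chain, rose by 1.38 (adjusted p = 0.0448 from limma). MFNG, a glycosyltransferase that modifies Notch receptors, rose by 1.62 (adjusted p = 0.0434 from limma). SMOC1, a secreted matrix protein, was at least 5.98-fold higher (adjusted p = 0.00758 from limma), with levels of -4.40 and -4.14 in controls and -1.68 and -1.13 in silenced cells.

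Of 21 ERBB receptors, ligands and adaptors 1 rose, 3 (14.3%) were 2-fold higher and 3 (14.3%) were 2-fold lower, with a median of 0.11. Under normexp 2 were higher and 2 lower, against 209 and 283 of all 15552 genes. Among the 17 members well above background on the 4 SKOV3 arrays, 3 were higher and 1 was lower, with a median of 0.38. Of 13153 genes measured that way, 322 were higher and 366 lower. EGFR, the epidermal growth factor receptor, had control levels of 1.26 and 1.21, against -0.60 for sh-SFPQ#2 and -2.40 for sh-SFPQ#3. The controls were close, and the shRNAs were far apart, so that the change of -2.73 did not pass (adjusted p = 0.0839 from limma). ERBB4, a neuregulin receptor, had 0.80 and -1.32 in controls and -2.20 and -5.42 in silenced cells (adjusted p = 0.222 from limma). SPRY4, a feedback inhibitor of receptor tyrosine kinase signalling, rose by 1.71, from -2.86 and -2.36 to -0.73 and -1.07 (adjusted p = 0.0378 from limma). AREG, an EGFR ligand, and GRB7, an adaptor that lies next to ERBB2, were 1.29 and 1.58 higher (adjusted p = 0.0780 and 0.111 from limma). ERBB2 itself stayed within the range of the controls.

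Very long genes were lower. The list held 64 genes known to span long introns, of which 46 were tested, and 22 of these (47.8%) were at least 2-fold lower without overlap, against 3.97% of all genes; 3 of the 46 fell by the adjusted p and 1 was 2-fold higher. Earlier results of these data had shown a fall of 3 members, ZFHX4, SLIT3 and UBE2E2, and without these the count was 19 of 43 (44.2%). Of the 46 members, 37 were well above background on both arrays of a SKOV3 group, and the rest entered through MDAH arrays alone. Among the 26 members well above background on the 4 SKOV3 arrays, 11 (42.3%) were 2-fold lower, against 366 of 13153 genes measured that way. The median was -0.88 in SKOV3 cells and -1.96 in MDAH cells. With normexp, 16 of the 46 were 2-fold lower, against 283 of all 15552 genes, and the list's median was -0.46 in SKOV3 cells. Gene lengths were not measured here.

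TENM3, a teneurin adhesion receptor of neurons, had levels of -2.25 and -2.58 in the controls and was not well above background in silenced cells, at least 3.28-fold lower (adjusted p = 0.0195 from limma). ZFHX4, a zinc finger homeobox protein, had 0.87 and -0.68 in controls and -3.22 and -3.70 in silenced cells, a change of -3.56 (adjusted p = 0.0414 from limma). FOXP2, a forkhead factor known for its part in speech circuits, was at least 1.15-fold lower (adjusted p = 0.0367 from limma). Other members had close controls and shRNAs far apart. GPC6, a glypican, had 1.81 and 1.29 in controls, -1.58 for sh-SFPQ#2 and -4.56 for sh-SFPQ#3. FTO, an RNA demethylase, had 2.90 and 2.92 in controls and -1.46 for sh-SFPQ#3, with sh-SFPQ#2 in between. Across the list 36 of 46 members, and 20 of the 22 that were 2-fold lower, were lower with sh-SFPQ#3 than with sh-SFPQ#2. The list's median was -1.39 without sh-SFPQ#2 and -0.54 without sh-SFPQ#3.

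**Figure D3:**
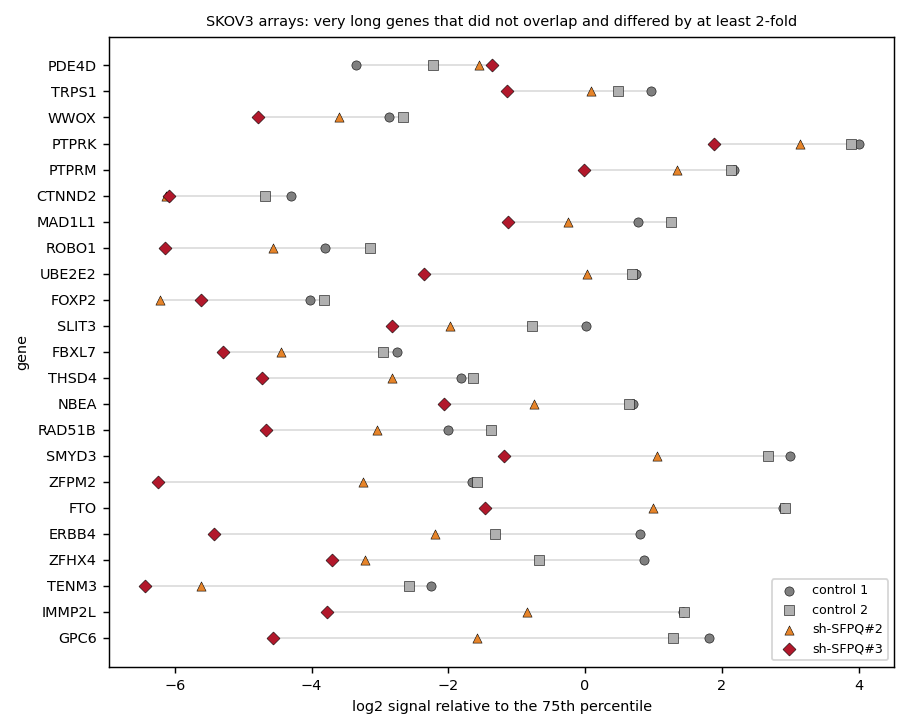
Levels on the log2 scale, set against percentile 75 of each array, for the 23 very long genes that did not overlap between SKOV3 groups and differed by at least 2-fold, in the order of their change; each symbol is 1 array. In 22 genes both silenced arrays lie left of both controls, and in 20 of these sh-SFPQ#3 is the lowest array, while PDE4D is higher after silencing.

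Genes of neuronal adhesion and guidance overlapped with this group. In the axon guidance list 10 of 54 members (18.5%) were 2-fold lower and 4 were 2-fold higher, with a median of 0.16. With normexp 5 were lower and 2 higher, against 283 and 209 of all 15552 genes. Without sh-SFPQ#3 the list's median was 0.08. NCAM2, a neural adhesion molecule, had levels of -2.55 and -3.10 in controls and was not well above background in silenced cells, at least 2.48-fold lower (adjusted p = 0.0484 from limma). EPHB2, an ephrin receptor, had 1.43 on both controls, -0.31 for sh-SFPQ#2 and -2.29 for sh-SFPQ#3 (adjusted p = 0.0839 from limma). NTN1, the netrin ligand, had 1.77 and 1.79 in controls, 0.61 for sh-SFPQ#2 and -2.09 for sh-SFPQ#3 (adjusted p = 0.246 from limma). SEMA3B, a secreted semaphorin, went the other way and was 1.83 higher (adjusted p = 0.0811 from limma).

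Other genes that fell included non-coding hosts, transporters and regulators. MIR31HG, the host transcript of a microRNA, had levels of 2.70 and 2.01 in controls and -0.45 and -2.03 in silenced cells, a change of -3.59 (adjusted p = 0.0414 from limma). SLC35F3, a thiamine transporter, had 1.65 and 1.49 in controls and -2.01 and -4.48 in silenced cells, a change of -4.81 (adjusted p = 0.0454 from limma). SLC39A11, a zinc transporter, had 0.26 and 0.60 in controls and -3.48 and -5.31 in silenced cells, a change of -4.82 (adjusted p = 0.0480 from limma). In the last pair of genes the sh-SFPQ#3 array was not well above background, so the size is open at its lower end.

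DISP1, which releases Hedgehog ligands, fell by 1.85 on the log2 scale, from -1.10 and -1.29 to -2.79 and -3.29 (adjusted p = 0.0299 from limma). FAT4, an atypical cadherin of planar polarity, fell by 2.03, from -0.99 and -1.60 to -3.02 and -3.63 (adjusted p = 0.0385 from limma). HOXD3, a homeobox factor, had -1.97 and -2.07 in controls and -3.80 and -3.81 in silenced cells and fell by 1.79 (adjusted p = 0.0211 from limma). The silenced arrays of these genes lay clear of both controls, and those of HOXD3 lay close to each other. SSH2, a cofilin phosphatase, fell by 2.01 (adjusted p = 0.0211 from limma), and PIAS2, a SUMO ligase that restrains STAT signalling, by 1.18 (adjusted p = 0.0448 from limma).

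Small shifts ran through some large lists without a single called member. Of 56 genes of mitosis and the spindle 54 lay below 0 and 47 lay below both controls on both silenced arrays, where 32.1% of all genes did so. Their median was -0.44, and none was 2-fold lower or called. SPC25, a kinetochore protein, had 3.62 and 3.71 in controls and 2.84 and 2.57 in silenced cells (adjusted p = 0.0616 from limma), and BUB1, a spindle checkpoint kinase, had 3.24 and 3.19 in controls and 2.38 and 2.33 in silenced cells (adjusted p = 0.0719 from limma). In MDAH cells the median of the same list was 0.35, against 0.10 over all genes. The medians of the 4 pairs of arrays in SKOV3 cells lay between -0.51 and -0.33. The 55 genes of DNA replication had a median of -0.07.

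Of 60 respiratory chain genes 56 lay below 0, with a median of -0.23, where 8393 of all 15552 genes lay below 0. The list median was -0.09 with normexp and -0.08 with the deposited values, settings in which the median of all genes was 0.01. UQCRH, a subunit of complex III, was 1 of 4 members above 0 and the only member that was 2-fold higher. It had -0.69 and -0.21 in controls and 1.47 and 2.98 in silenced cells (adjusted p = 0.0618 from limma). Near-identical copies of UQCRH could share its signal. NDUFA10 was the member that was 2-fold lower, at -1.02. The 57 SR proteins and splicing regulators had a median of -0.27, with 42 below 0 and none called. That median was -0.13 with normexp and -0.12 with the deposited values. NOVA1 and NOVA2, splicing factors known from neurons, and MBNL3, a muscleblind-like factor, were -1.67, -1.31 and -1.30 and made up the 3 members that were 2-fold lower. ESRP1, an epithelial splicing factor, separated the controls rather than the groups: it had -1.43 in control 1 and -5.74 in control 2, and -6.23 and -5.30 in silenced cells.

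Replication-dependent histone genes, whose transcripts mostly lack a poly(A) tail, differed between the silenced arrays. Each shRNA had a single array, so shRNA and array cannot be told apart. Against the mean of the controls, the median over 49 members was -0.06 for sh-SFPQ#2 and -0.83 for sh-SFPQ#3, and 48 members were lower with sh-SFPQ#3 than with sh-SFPQ#2. By the means of the groups 2 members, H4C1 and H1-1, were 2-fold lower without overlap, and 0 were when sh-SFPQ#3 was left out. H1-1 had 1.81 and 1.52 in controls, 1.31 for sh-SFPQ#2 and -0.57 for sh-SFPQ#3, and H4C1 was at 3.13 and 2.90 in controls and 2.05 and 1.98 in silenced cells (adjusted p = 0.0594 from limma). Histone genes are near-identical copies, so single members are uncertain.

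**Figure D4:**
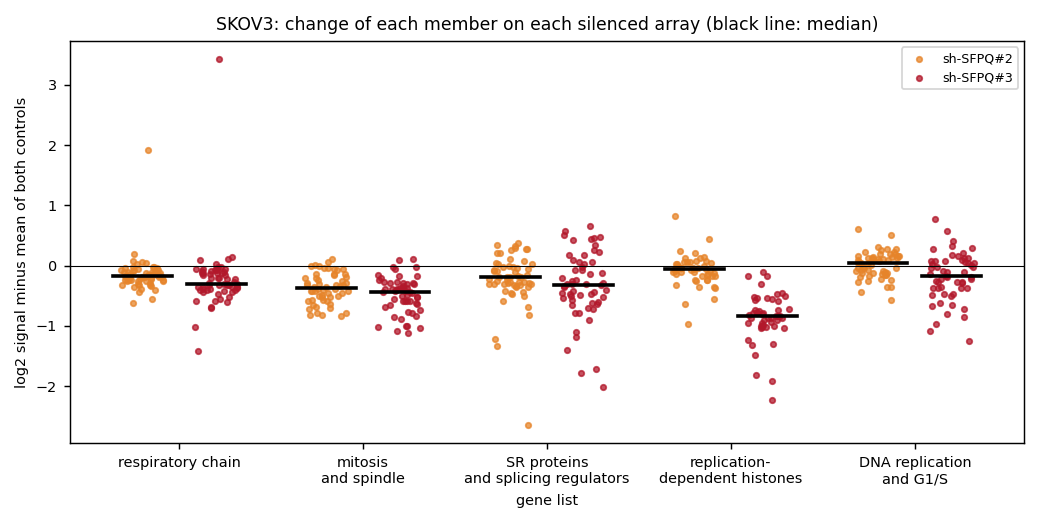
Log2 signal of each silenced SKOV3 array minus the mean of both controls for every member tested of 5 gene lists, with orange points for sh-SFPQ#2, red points for sh-SFPQ#3 and a black line at the median of each. Mitosis and spindle genes have medians of -0.37 and -0.43, whereas replication-dependent histones have -0.06 for sh-SFPQ#2 and -0.83 for sh-SFPQ#3.

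The change in SKOV3 cells was set against that in MDAH cells by the interaction term of the same fit, and 15 of 15552 genes passed (0.0965%). Of the 155 genes called in SKOV3 cells, 126 had the same sign in MDAH cells and 41 were called in both lines in the same direction. TNFSF14, the cytokine LIGHT, had levels of -6.14 and -5.99 in the SKOV3 controls, where it was not well above background, and -3.13 and -2.94 after silencing, at least 1.93-fold higher. It changed by -1.91 in MDAH cells, and the difference of 4.94 had an adjusted p of 0.0132 from limma. NCKAP5, a microtubule-associated protein, was at least 4.85-fold higher in silenced SKOV3 cells and changed by -0.75 in MDAH cells, a difference of 5.02 (adjusted p = 0.0294 from limma). For TNFSF14 and NCKAP5 the SKOV3 change is only a bound, so the size of the difference is uncertain. No gene passed the interaction term with normexp or among genes well above background on the 4 SKOV3 arrays.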

How the data were processed

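Total RNA of cultured cells was labelled with Cy3 and hybridised to 1-colour Agilent arrays. The deposited scanner files hold, per the file headers, background-subtracted signal intensity in linear units from Feature Extraction 11.5.1.1 (the submitters' processing notes name 10.7.3.1). The authors' deposited value table holds log2 values that were quantile-normalized and centred on each probe, and served as an alternative. Columns of no sample numbered 0.

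Each array's log2 intensity was set relative to its percentile 75, spots of a probe were averaged, and the brightest probe stood for a gene. Genes had to be well above background on both arrays of a group, which left 15552. All 4 groups were fitted with limma 3.58.1 in R 4.3.3, with Benjamini-Hochberg adjustment over all genes and a threshold of 0.05. The fit was checked on simulated data. Members and lists were chosen with earlier results of these data known. Named genes were SFPQ, the 15 highest and 15 lowest called changes measured in both groups, the 8 largest bounds each way, called list and family members, up to 4 members each way per list past 2-fold without overlap, and the 5 highest and 5 lowest differences between lines. Other genes given as examples, SPC25, BUB1 and ESRP1 among them, fell outside these rules and were chosen with their values known. Y-linked genes were not named. Alternatives were quantile normalization, median centring, the value table, normexp with offset 50, other filters, the mean of probes, SKOV3 arrays alone, the methods' t-test and leaving out each array. The number of arrays, 2 a group, limits the precision. Some marker genes and 1 gene list are not reported here.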

Additional observations from a re-analysis of the deposited data

Results flagged for a closer look

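For 11 genes named here the change in SKOV3 cells differed from that in MDAH cells by the interaction term of limma. The difference, SKOV3 change minus MDAH change on the log2 scale, was 5.02 for NCKAP5, 4.94 for TNFSF14, 4.14 for KHDRBS2, 3.46 for FUT9, 3.08 for GRM8 and 2.94 for SMOC1. It was -6.08 for CLEC12A, -4.78 for MS4A12, -4.10 for DRD5, -4.07 for ITGAD and -3.60 for LINC01994. Where a group was not well above background, as for NCKAP5, TNFSF14 and SMOC1 in the SKOV3 controls, the size of the difference is uncertain. KHDRBS2, FUT9 and GRM8 were not well above background in SKOV3 cells and changed by -4.35, -3.63 and -3.20 in MDAH cells.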

How the results depend on the processing

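No paired analysis was possible because the groups compared share fewer than 2 replicate numbers. The count of genes called in SKOV3 cells, 155, was 128 with quantile normalization, 111 with median centring, 121 with the deposited values and 149 with the mean of probes. It was 322 with normexp (157 higher, 165 lower), 39 with no filter (10 higher, 29 lower), 75 among genes well above background on the 4 arrays (42 higher, 33 lower), 0 with SKOV3 arrays alone (2765 at an unadjusted p under 0.05) and 0 with the methods' t-test after adjustment (1758 unadjusted). Leaving out 1 array gave 13 to 595: 13 without either MDAH control, 21 without SKOV3 control 1, 60 without control 2, 595 without sh-SFPQ#2 and 79 without sh-SFPQ#3. The 15 genes that differed between lines became 29 with quantile normalization, 23 with median centring, 28 with the deposited values, 0 with normexp (2178 unadjusted) and 0 among genes well above background (2058 unadjusted), and 0 to 182 with 1 array left out. The SFPQ change was -2.01 with no filter and with SKOV3 arrays alone, where it no longer passed (adjusted p = 0.060 and 0.157 from limma), and -2.27 to -1.74 with 1 array left out. The 1177 genes past 2-fold without overlap became 492 with normexp, 688 among genes well above background and 1006 to 1986 with 1 array left out. The change of FUT9, not called in SKOV3 cells, turned to 0.0147 with normexp and 0.243 with the mean of probes. The cause of these shifts was not tested.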
